A study of Mus musculus with 10 samples.

Results

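The collagen alpha chain genes were followed in outflow veins taken from arteriovenous fistulas, direct joins of an artery to a vein, in mice given antibody or vehicle. The family was taken as every protein-coding gene of the deposited table whose symbol has the form Col, number, a, number, which gave 44 of 43346 genes. All animals were hCX3CR1 knock-in mice (human CX3CR1) of a strain labelled C57, and chronic kidney disease and the fistula were also common to both groups. Kidney disease preceded the fistula, made from the carotid artery and jugular vein, by 28 days. Injections into the peritoneum, of antibody at 30 mg/kg or of vehicle, were made 2 times per week until collection on day 7. The antibody's target is given as human CX3CR1 (a chemokine receptor) in the treatment text but as fractalkine (its ligand) in the title and design, and the labels do not settle which was bound. There were 5 libraries per group, and p-values measure the spread between these libraries, since the labels do not state that each came from a separate animal. Age, promoter of the knock-in, unoperated veins and mice without kidney disease are not described by the labels used here.

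Collagens are secreted proteins built from 3 alpha chains wound into a triple helix, and the winding requires a glycine in each repeat of the sequence, followed by a pair of other residues. The fibrillar collagens form the load-bearing fibrils of the vein wall, of which types I and III are the main ones, and network collagens such as type IV form the sheets of basement membranes under endothelium and around smooth muscle. Beaded filament collagen (type VI) links cells to the fibrils, the fibril-associated collagens decorate fibril surfaces, and deposition of these proteins by fibroblasts and smooth muscle cells is a known feature of vein walls that thicken under arterial flow.

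The repeat that defines the family was read from the longest coding sequence of each gene in GENCODE M21 (GRCm38, the same assembly as the mm10 build of the submitters' notes). Stretches of 30 codons are shown for 5 chains on which the results turn, because the classes differ in how far the repeat runs without a break. Capitals mark codons of the form GGN, which encode glycine; the 5′ codon of each stretch is given by its number from the start codon.
Col1a1, codons 168 to 197: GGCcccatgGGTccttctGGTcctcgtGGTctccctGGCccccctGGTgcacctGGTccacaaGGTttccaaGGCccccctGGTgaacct
Col3a1, codons 164 to 193: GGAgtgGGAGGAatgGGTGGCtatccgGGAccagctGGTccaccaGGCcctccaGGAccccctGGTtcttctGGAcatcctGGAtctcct
Col24a1, codons 568 to 597: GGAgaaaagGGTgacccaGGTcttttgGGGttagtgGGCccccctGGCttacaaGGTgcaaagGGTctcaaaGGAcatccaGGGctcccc
Col6a2, codons 271 to 300: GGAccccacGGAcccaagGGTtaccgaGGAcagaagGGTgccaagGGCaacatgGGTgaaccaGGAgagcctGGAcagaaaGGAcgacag
Col4a1, codons 1338 to 1367: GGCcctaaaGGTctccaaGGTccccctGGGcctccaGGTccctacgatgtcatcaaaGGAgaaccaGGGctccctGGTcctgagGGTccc
In Col1a1 the unbroken run held 338 repeats and in Col3a1 344. The run of Col24a1 was shorter, at 216 repeats, close to the 217 of Col27a1, and the Col6a2 run held 87. The Col4a1 stretch shows the end of a run of 40, where codons without glycine interrupt the pattern. By class, the longest run was 216 to 344 repeats in the 11 fibrillar chains, 39 to 66 in the 9 network chains, 37 to 87 in the 6 beaded filament chains and 32 to 113 in the 9 fibril-associated chains. Network chains carried 6 to 19 separate runs of at least 10 repeats, against 2 or 3 in each fibrillar chain.

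The values are RPKM, reads divided by the gene's length and the library's total, further scaled for library composition. Library depth was 4282872 reads (antibody 3) to 34271554 reads (vehicle 4), and all 44 chains passed the filter on low values. Depth averaged 13089208 reads with antibody and 21757390 reads with vehicle, and its part in the values of rare chains was not tested. In limma over all 17859 genes kept, 0 genes (0%) had an adjusted p below 0.05, the smallest adjusted p was 0.739, and 6.54% had an unadjusted p below 0.05, 2.95% lower and 3.59% higher with antibody. Summed endothelial markers (Pecam1, Cdh5 and 3 others) were 139 to 179.5 RPKM in the antibody group and 139 to 179 RPKM in the vehicle group, and all 5 were detected in every library. The 5 smooth muscle markers summed to 233 to 432 RPKM in the antibody group and 303 to 478 RPKM in the vehicle group, and 0 of 5 had a higher antibody mean. The 6 fibroblast markers summed to 798 to 1193 RPKM in the antibody group and 766 to 1663 RPKM in the vehicle group, with 1 of 6 higher with antibody, and the 6 skeletal muscle markers to 306 to 3143 RPKM in the antibody group and 542 to 5545 RPKM in the vehicle group, with 0 of 6 higher.

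Transcripts of the collagen chains made up 6.78% to 9.09% of all reads. Col3a1, the chain of type III collagen that is abundant in vessel walls, had the highest mean, followed by Col1a1 and Col1a2, the chains of type I collagen. These 3 genes held 71.7% to 81.5% of all collagen reads. Chain means spanned 0.0833 RPKM (Col25a1) to 3297.7 RPKM (Col3a1); 11 chains were at 100 RPKM or more, 18 at 10 RPKM or more and 15 below 1 RPKM. By mean RPKM the order of the leading chains was Col3a1, Col1a1, Col1a2, Col5a1, Col6a1, Col6a3, Col5a2, Col4a1, Col6a2, Col14a1 and Col4a2. This order depends on the annotated length of each gene. Col6a2 (8326 bases) held 275929 reads over all libraries, against 255065 for Col6a1 (4380 bases). Col3a1 exceeded Col1a1 in 9 of 10 libraries, the exception being vehicle 2. Col1a1 exceeded Col1a2 in all 10, whereas the ranges of Col5a1 and Col6a1, and of Col6a3 and Col5a2, overlapped.

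**Figure D1:**
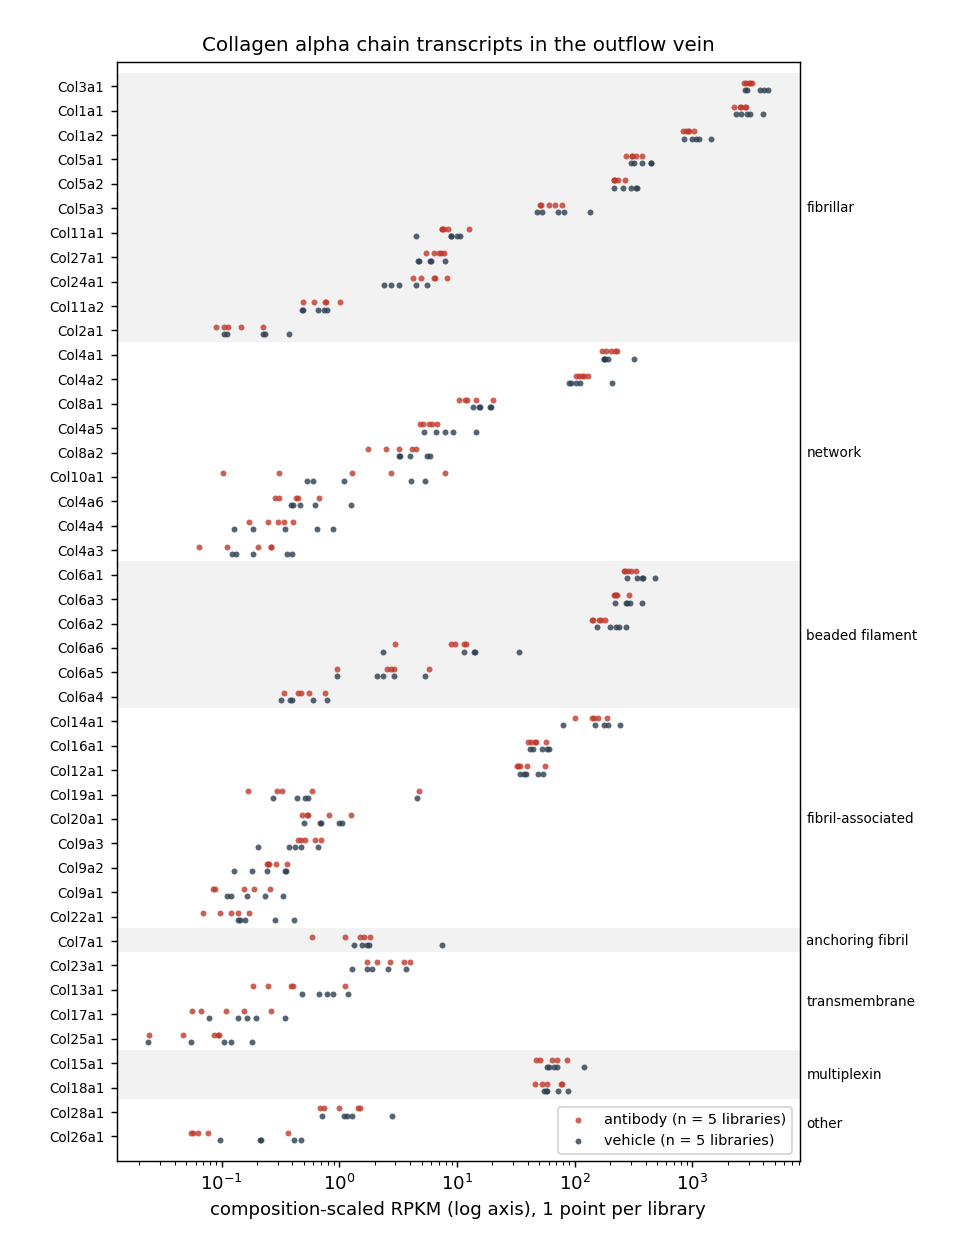
Composition-scaled RPKM of the 44 collagen chains on a log axis, with 1 point per library (5 antibody, 5 vehicle), grouped by collagen class and ordered by mean level within a class. Means run from 0.0833 RPKM (Col25a1) to 3297.7 RPKM (Col3a1), and the points of the groups overlap in each of the 44 chains.

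No collagen chain met the adjusted threshold, yet the fitted values leaned to the vehicle side. With antibody, 35 of 44 chains had a lower fitted value (79.5%, against 51.1% of all genes tested) and 9 a higher one. The median log2 difference, antibody minus vehicle on log2(RPKM + 0.5), was -0.16, against -0.00 over all genes. All 18 chains at 10 RPKM or more had a lower fitted value, with a median of -0.23, against 55.1% and -0.02 among the 4695 genes of that level. That count was 15 of 18 without vehicle 2 or without antibody 4, and 16 of 18 without antibody 1. The 26 chains below 10 RPKM divided into 17 lower and 9 higher, with a median of -0.11. These counts are descriptions with no test, since genes are not replicates and collagen chains vary together between libraries. When libraries were scaled by their totals alone, 33 of 44 chains and 16 of the 18 abundant ones were lower, with 36.3% of all genes, and Col4a1 and Col4a2 turned to the higher side. Because the tissue was measured in bulk, fewer cells of a type and less RNA per cell cannot be told apart.

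In single chains, 2 of 44 had an unadjusted limma p below 0.05, Col24a1 (higher) and Col6a2 (lower), each with an adjusted p of 0.739. That is a share close to the 6.54% of all genes. In 0 of 44 chains were the groups without overlap, against 1.11% of all genes. In limma-voom on the recovered reads, 6 chains and 1062 of 17859 genes had an unadjusted p below 0.05. Without vehicle 2 the counts were 5 chains and 1332 of 17583 genes, and without vehicle 4, 6 chains and 1389 of 17594. Without antibody 5 they were 4 chains and 1497 of 17669 genes, and with library totals alone, 1 chain and 991 of 17859. In the authors' deposited table, Col24a1 was the 1 chain of 44 that had a p below 0.05 (0.036, with a ratio of 1.75), against 3.94% of 39673 genes. Fold values on the log2(RPKM + 0.5) scale understate differences of chains near or below 1 RPKM.

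**Figure D2:**
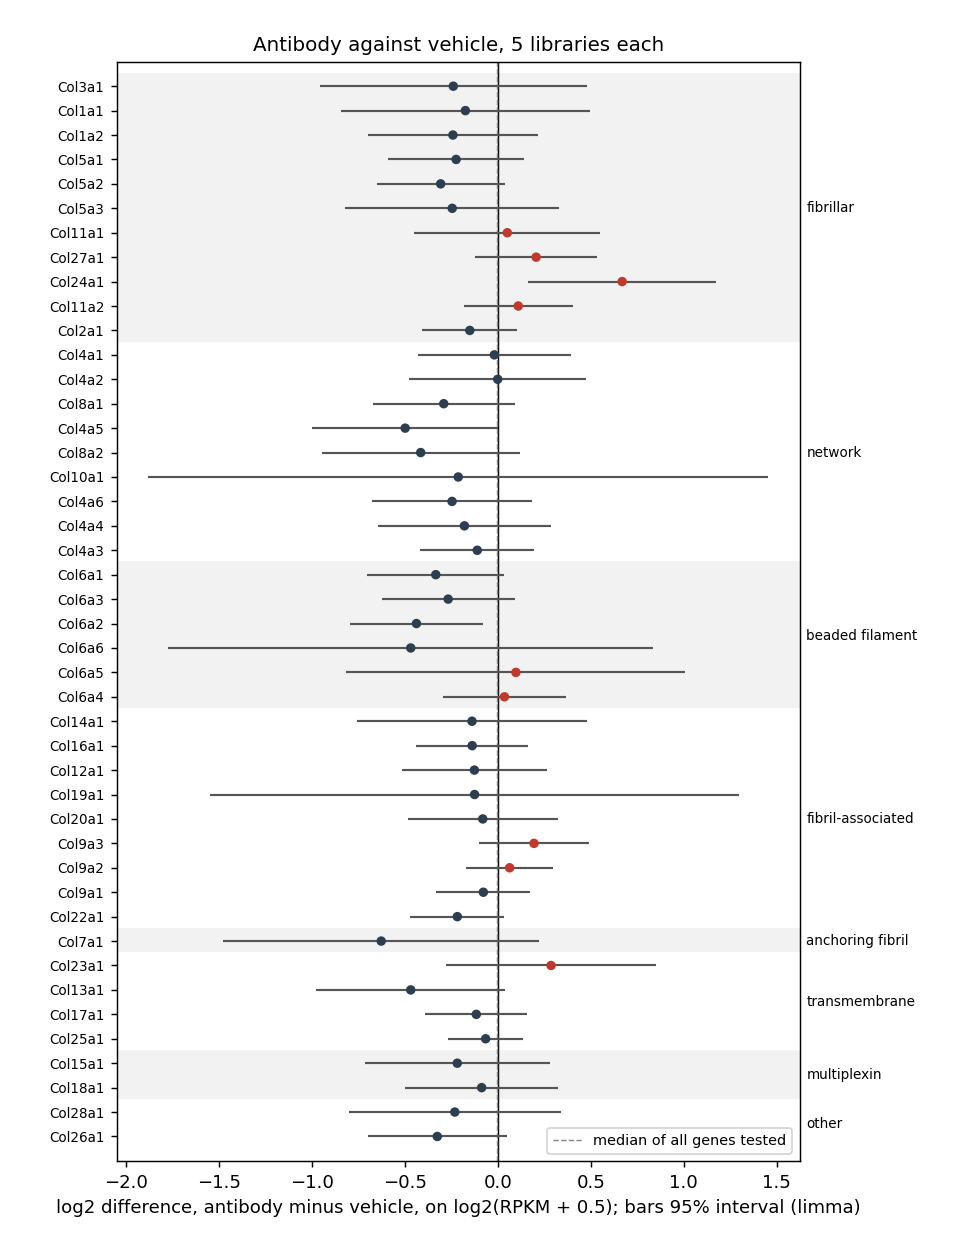
Fitted log2 difference, antibody minus vehicle, for each of the 44 chains on log2(RPKM + 0.5), with 95% intervals from limma (n = 5 libraries per group); the dashed line is the median of all genes tested. Points lie below 0 for 35 chains, from -0.63 (Col7a1), and above 0 for 9, up to 0.67 (Col24a1), and only the intervals of Col24a1 and Col6a2 leave out 0.

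In the fibrillar class no chain was called. Of 11 chains, 7 had a lower fitted value with antibody (the 6 at 10 RPKM or more and Col2a1) and 4 a higher one, with a median log2 difference of -0.18. Col3a1 measured 2869.9, 3033, 2759.7, 3231 and 3109.7 in antibody libraries 1 to 5 and 3771, 2804, 4031, 2938 and 4431 in vehicle libraries 1 to 5 (scaled RPKM). Vehicle libraries 1, 3 and 5 stood above all antibody libraries, while vehicle 2 and 4 lay among them, so the groups overlapped. The means were 3001 ± 188 RPKM with antibody and 3595 ± 703 RPKM with vehicle (SD, n = 5 each), a log2 difference of -0.24 (fold 0.847 (95% interval 0.515 to 1.39), SE 0.32 in limma, adjusted p = 0.867, exact permutation p = 0.135). The exact tests are two-sided over all assignments of 5 libraries against 5 and cannot give a p below 0.00794. Their p-values are unadjusted, and the tests were run on the chains only, so no share over all genes stands beside them. Of the 44 chains, only Col24a1, Col6a2 and Col6a1 had an exact permutation p below 0.05.

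Col1a1, which supplies most of the type I trimer, measured 2777, 2835, 2526, 2251 and 2603 in antibody libraries 1 to 5 and 2889.9, 3057, 2575, 2347 and 4003 in vehicle libraries 1 to 5. Vehicle 1, 2 and 5 stood above all antibody libraries, antibody 4 was lowest, and vehicle 3 and 4 lay among the antibody libraries. Its log2 difference was -0.18 (SE 0.30 in limma, adjusted p = 0.897, exact permutation p = 0.27), -0.07 without vehicle 5 and -0.0058 without the 4 libraries richest in Kap, a kidney transcript. Those 4 were antibody 2, antibody 4, vehicle 1 and vehicle 5, so that fit held fewer libraries in each group. Col1a2, the partner chain in that trimer, measured 922, 1024, 936, 830.1 and 878 in antibody libraries 1 to 5 and 1075, 990.5, 1129, 855 and 1451 in vehicle libraries 1 to 5. Vehicle 1, 3 and 5 were above all antibody libraries and antibody 4 was lowest, with overlap between the groups. The means were 918 ± 72.4 RPKM with antibody and 1100.2 ± 222 RPKM with vehicle (SD, n = 5 each), with a log2 difference of -0.24 (SE 0.21 in limma, adjusted p = 0.802, exact permutation p = 0.103), and -0.14 without vehicle 5 or -0.11 without the Kap-rich libraries. The Col3a1 difference without the Kap-rich libraries was -0.14. Spread was wider in the vehicle group for all 3 genes.

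Col5a1 and Col5a2 encode chains of type V collagen, which is incorporated into type I fibrils and limits their diameter. Col5a1 was 319 ± 37.6 RPKM with antibody and 376 ± 69.2 RPKM with vehicle (SD, n = 5 each), a log2 difference of -0.22. Col5a2 was 231 ± 22.1 RPKM with antibody and 289 ± 52.5 RPKM with vehicle (SD, n = 5 each), a log2 difference of -0.31 with an unadjusted limma p of 0.0745 and an adjusted p of 0.739. Col5a2 was the lowest of the class in log2 terms, its groups overlapped, and vehicle 4 was the lowest library of all. Col5a3, another type V chain, ranged from 50.4 to 77.9 RPKM with antibody and 47.4 to 134 RPKM with vehicle, the top of the vehicle range being vehicle 2. Its log2 difference was -0.25, and -0.02 without vehicle 2.

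Col24a1 encodes a minor fibrillar chain and stood highest in the antibody group relative to vehicle. It measured 8.25, 6.5, 6.38, 4.92 and 4.19 in antibody libraries 1 to 5 and 3.2, 2.76, 5.57, 4.49 and 2.39 in vehicle libraries 1 to 5, from 163 to 1193 reads per library. Antibody libraries 1, 2 and 3 were above all vehicle libraries, antibody 4 and 5 lay inside the vehicle range, and vehicle 5 was lowest. The means were 6.05 ± 1.57 RPKM with antibody and 3.68 ± 1.32 RPKM with vehicle (SD, n = 5 each), a fold of 1.59 (95% interval 1.12 to 2.26) and a log2 difference of 0.67 (SE 0.23, unadjusted limma p = 0.0145, adjusted p = 0.739, exact permutation p = 0.0397). With each library left out in turn the log2 difference was 0.54 to 0.82, and it was 0.51 without the 4 Kap-rich libraries, where its unadjusted p was no longer below 0.05. In that fit, of fewer libraries, 515 of 16134 genes had an unadjusted p below 0.05, against 1168 of 17859 with all libraries.

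Other rare fibrillar chains showed small differences. Col27a1, a chain known from developing cartilage, was 6.75 ± 0.885 RPKM with antibody and 5.85 ± 1.34 RPKM with vehicle (SD, n = 5 each), a log2 difference of 0.21 (0.13 without vehicle 5 and 0.32 without vehicle 2). Col11a1, a chain of the cartilage fibril collagen XI, was 8.72 ± 2.16 RPKM with antibody and 8.56 ± 2.41 RPKM with vehicle (SD, n = 5 each), a log2 difference of 0.05, and -0.16 without vehicle 5. Without the 4 Kap-rich libraries, a fit of fewer libraries, Col11a1 was lower with antibody at an unadjusted limma p below 0.05. Col11a2, its partner, was 0.727 ± 0.197 RPKM with antibody and 0.633 ± 0.14 RPKM with vehicle (SD, n = 5 each), and Col2a1, the main cartilage collagen, ranged from 0.0893 to 0.224 RPKM with antibody and 0.105 to 0.374 RPKM with vehicle. The 6 cartilage markers summed to 7.32 to 13.6 RPKM in the antibody group and 4.96 to 12.5 RPKM in the vehicle group, with 4 of 6 higher with antibody and Matn1 and Snorc at 0 in some libraries. Their part in the values of these chains was not tested.

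Among the 9 network chains, every fitted value was below 0, with a median of -0.21 and a range of -0.50 (Col4a5) to -0.00 (Col4a2), and no chain passed an unadjusted p of 0.05. Col4a1 and Col4a2, the chains of the basement membrane collagen found under nearly all endothelium, did not differ between the groups beyond their spread. Col4a1 measured 185, 205, 218, 170.2 and 230.1 in antibody libraries 1 to 5 and 176, 322, 180.2, 190.2 and 179 in vehicle libraries 1 to 5. Vehicle 2 stood far above the other 9 libraries, and the remaining vehicle libraries lay within the antibody range. Its log2 difference was -0.02 (fold 0.987 (95% interval 0.743 to 1.31), SE 0.19 in limma, adjusted p = 0.984), and 0.15 without vehicle 2.

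Col4a2 measured 108, 121, 115, 103 and 129 in antibody libraries 1 to 5 and 103, 209, 90.3, 110.3 and 93.1 in vehicle libraries 1 to 5. The same vehicle library was highest, and vehicle 3 and 5 were lowest. The log2 difference was -0.0012 (SE 0.21 in limma, adjusted p = 0.9993, exact permutation p = 0.992), and 0.21 without vehicle 2. Smooth muscle markers were also highest in vehicle 2, at 478 RPKM summed over 5 genes, all of them detected in every library, while endothelial markers summed to 179 RPKM there and 179.5 RPKM in antibody 3, the highest library. The part of smooth muscle in these levels was not tested.

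Col4a1 and Col4a2 lie head to head on chromosome 8, and in the deposited coordinates the genes share 22 bases (Col4a1 ends at 11312826 and Col4a2 begins at 11312805, mm10). Because reads from the shared bases cannot be assigned without strand, on whose use the labels are silent, a few reads may have been counted for either gene. The start regions are printed because this pair moved together across libraries. They are RefSeq windows of 300 bases on GRCm38.p6, from 250 bases before to 50 bases after each start, and share 78 bases. Capitals mark CCAAT, the CCAAT box, and GGGCGG, the GC box, on either strand (ATTGG and CCGCCC on the other).
Col4a1, chr8:11312777-11313076, minus strand: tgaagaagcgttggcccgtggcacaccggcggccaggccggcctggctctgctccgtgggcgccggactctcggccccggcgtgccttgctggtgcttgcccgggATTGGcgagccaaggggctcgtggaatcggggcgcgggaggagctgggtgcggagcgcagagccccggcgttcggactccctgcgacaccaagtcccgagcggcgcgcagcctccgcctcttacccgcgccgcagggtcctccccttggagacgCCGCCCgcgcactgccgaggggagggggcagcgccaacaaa
Col4a2, chr8:11312555-11312854, plus strand: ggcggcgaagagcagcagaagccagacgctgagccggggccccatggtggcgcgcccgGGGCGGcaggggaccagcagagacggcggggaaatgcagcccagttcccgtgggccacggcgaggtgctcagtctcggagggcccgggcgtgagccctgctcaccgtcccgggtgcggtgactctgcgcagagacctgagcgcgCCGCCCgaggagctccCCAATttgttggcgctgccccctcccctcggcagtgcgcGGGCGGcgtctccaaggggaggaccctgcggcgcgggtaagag
Of the 44 chains, 35 had such a window. CCAAT was found in 12 of them (34.3%), against 37.4% of all 32851 windows, and GGGCGG in 22 (62.9%), against 35.7%. TATAAA was found in 5 (14.3%), against 13.6%. For each chain the window nearest its deposited start was taken, and base composition was not matched to that of all windows. A match describes these letters in these windows and does not show binding.

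Col8a1, a short chain of the hexagonal network beneath vessel endothelium, measured 12.1, 20.1, 10.4, 14.5 and 11.6 in antibody libraries 1 to 5 and 19.4, 15.5, 19, 15.6 and 13.7 in vehicle libraries 1 to 5. Antibody 1, 3 and 5 were below all vehicle libraries, while antibody 2 was the highest library of all. Its log2 difference was -0.29 (SE 0.17 in limma, adjusted p = 0.763, exact permutation p = 0.151), and -0.53 without the Kap-rich libraries. In that fit, of fewer libraries, the unadjusted limma p of Col8a1 was below 0.05. Col8a2, its partner chain, ranged from 1.75 to 4.45 RPKM with antibody and 3.23 to 5.87 RPKM with vehicle, a log2 difference of -0.42, and -0.25 without antibody 3.

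Col4a5, a chain of specialised basement membranes such as that of the kidney glomerulus, had the lowest fitted value of the class. It ranged from 4.8 to 6.73 RPKM with antibody and 5.2 to 14.5 RPKM with vehicle, with vehicle 1 highest. The means were 5.69 ± 0.771 RPKM with antibody and 8.69 ± 3.6 RPKM with vehicle (SD, n = 5 each), a log2 difference of -0.50 with an unadjusted limma p of 0.05 and an adjusted p of 0.739, and -0.30 without vehicle 1. Col4a3, Col4a4 and Col4a6, further basement membrane chains, all averaged below 1 RPKM. Col10a1, the collagen of hypertrophic cartilage, ranged from 0.102 to 7.83 RPKM with antibody and 0.536 to 5.33 RPKM with vehicle, a coefficient of variation of 108%. That gene overlaps the span of Nt5dc1 on the opposite strand. Overlap of their exons was not examined, so whether reads of Nt5dc1 were counted for Col10a1 is not known.

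The beaded filament class held the chain with the smallest unadjusted p among the lower chains. Of its 6 chains, 4 had a lower and 2 a higher fitted value, with a median of -0.30. Col6a1, Col6a2 and Col6a3, which assemble into the common type VI monomer, were all lower with antibody by their means. Col6a2 measured 160.2, 180.4, 141, 144 and 166 in antibody libraries 1 to 5 and 200.4, 275, 224, 153 and 236 in vehicle libraries 1 to 5. Antibody 3 and 4 were below all vehicle libraries, vehicle 2 was highest, and vehicle 4 lay among the antibody libraries. The means were 158 ± 16.1 RPKM with antibody and 218 ± 45.2 RPKM with vehicle (SD, n = 5 each), a fold of 0.738 (95% interval 0.575 to 0.947) and a log2 difference of -0.44 (SE 0.16, unadjusted limma p = 0.0214, adjusted p = 0.739, exact permutation p = 0.0317). The log2 difference was -0.56 to -0.35 with each library left out, the smallest in size without vehicle 2, and the unadjusted p was not below 0.05 without vehicle 2, without antibody 4, with library totals alone or without the 4 Kap-rich libraries. Without those 4 the log2 difference was -0.44, in a fit of fewer libraries.

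Col6a1 measured 301, 333, 261, 269 and 282 in antibody libraries 1 to 5 and 338, 483, 380.4, 276 and 369.5 in vehicle libraries 1 to 5. Vehicle 2 was again highest, and antibody 3 and 4 were below all vehicle libraries. The means were 289 ± 28.9 RPKM with antibody and 369.5 ± 75.6 RPKM with vehicle (SD, n = 5 each), a log2 difference of -0.33 (SE 0.17, unadjusted limma p = 0.0708, adjusted p = 0.739, exact permutation p = 0.0476). Col6a3, the longest of these chains, measured 217, 289.9, 221, 230.2 and 225 in antibody libraries 1 to 5 and 278, 373, 295, 218 and 273 in vehicle libraries 1 to 5. Antibody 2 stood above the other antibody libraries, vehicle 2 was highest, and vehicle 4 was close to the lowest library, antibody 1. Its log2 difference was -0.27 (SE 0.16 in limma, adjusted p = 0.77, exact permutation p = 0.135), and -0.17 without vehicle 2.

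Col6a4, Col6a5 and Col6a6, the alternative chains of type VI collagen, lie in tandem on chromosome 9 and did not follow the common chains in every library. Col6a6 ranged from 2.98 to 11.9 RPKM with antibody and 2.34 to 33.9 RPKM with vehicle. Vehicle 1 was highest and vehicle 2, the top library of the common chains, was lowest. Col6a5 ranged from 0.952 to 5.74 RPKM with antibody and 0.946 to 5.38 RPKM with vehicle, also lowest in vehicle 2, and Col6a4 from 0.342 to 0.754 RPKM with antibody and 0.317 to 0.784 RPKM with vehicle. Summed fibroblast markers were likewise highest in vehicle 1 (1663 RPKM) and lowest in vehicle 2 (766 RPKM), with 1 of 6 higher with antibody and all 6 detected in every library. Their part in the levels of Col6a5 and Col6a6 was not tested.

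**Figure D3:**
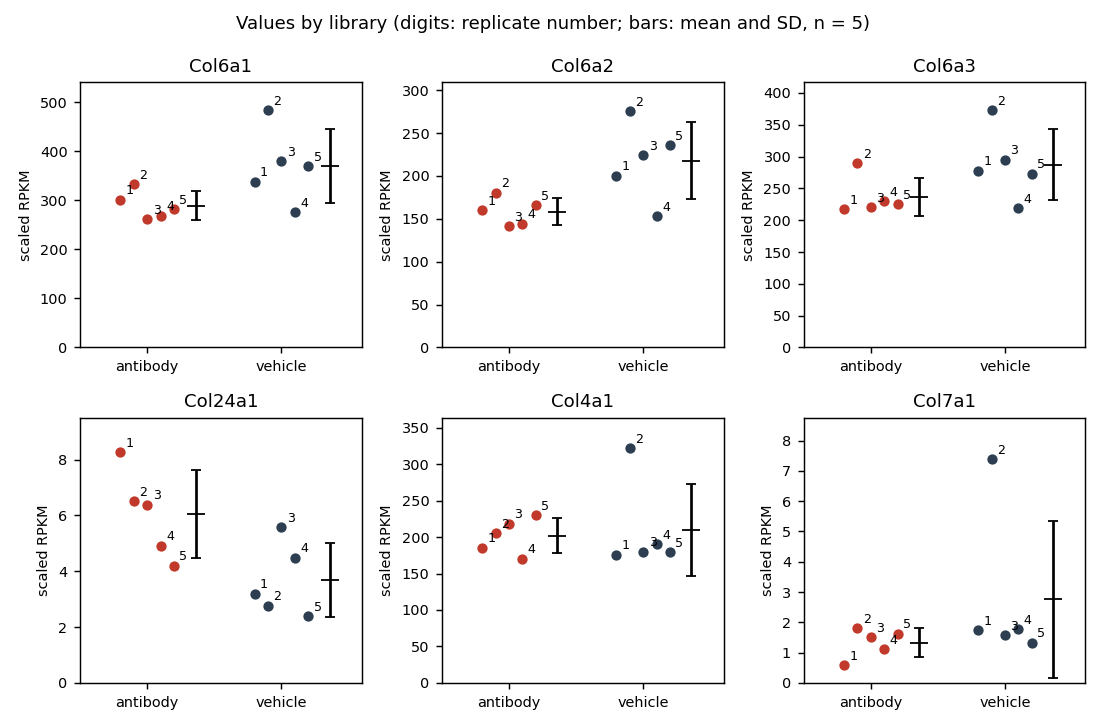
Composition-scaled RPKM by library for Col6a1, Col6a2, Col6a3, Col24a1, Col4a1 and Col7a1, with replicate numbers beside the points and the mean and SD (n = 5 libraries per group) as bars. Vehicle 2 is the top library in the panels other than that of Col24a1, where antibody 1, 2 and 3 lie above all vehicle libraries.

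Of the 9 fibril-associated chains, 7 had a lower and 2 a higher fitted value, with a median of -0.13, and no chain had an unadjusted p below 0.05. Col14a1, a chain bound to the surface of type I fibrils, measured 145, 141, 101, 157 and 187 in antibody libraries 1 to 5 and 242, 80.1, 178, 149 and 192 in vehicle libraries 1 to 5. Vehicle 1 was highest and vehicle 2 lowest, so the vehicle libraries enclosed all antibody libraries. The log2 difference was -0.14 (SE 0.28 in limma, adjusted p = 0.913), 0.01 without vehicle 1 and -0.38 without vehicle 2.

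Col16a1, which is found near fibrils and microfibrils, measured 45.7, 57.1, 46.9, 42.8 and 40.4 in antibody libraries 1 to 5 and 52.6, 41.5, 60.9, 44.4 and 58.2 in vehicle libraries 1 to 5. Vehicle 3 was highest and antibody 5 lowest, with the groups mixed between them. Col12a1, another chain carried on type I fibrils, measured 39.2, 56.3, 33.2, 34.5 and 32.3 in antibody libraries 1 to 5 and 37.4, 48.5, 53.3, 34.4 and 38.5 in vehicle libraries 1 to 5. Antibody 2 was the highest library and antibody 5 the lowest. The log2 differences were -0.14 (SE 0.14 in limma, adjusted p = 0.818) for Col16a1 and -0.13 (SE 0.18 in limma, adjusted p = 0.869) for Col12a1. With each library left out they ranged from -0.21 (without antibody 2) to -0.08 (without vehicle 3) for Col16a1, and from -0.26 to -0.04 for Col12a1 with the same libraries at the ends.

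The other fibril-associated chains were scarce. Col19a1, a chain described in embryonic muscle, stood at 4.74 RPKM in antibody 5 and at 4.57 RPKM in vehicle 4, against 0.166 to 0.591 RPKM in the other 8 libraries. Skeletal muscle markers summed to 3143 RPKM in antibody 5 and 5545 RPKM in vehicle 4, but also to 3483 RPKM in vehicle 5, where Col19a1 was 0.276 RPKM. All 6 muscle markers were detected in every library, and their part in the Col19a1 values was not tested. Col22a1, a chain of the junction between muscle and tendon, was 0.119 ± 0.0386 RPKM with antibody and 0.226 ± 0.119 RPKM with vehicle (SD, n = 5 each), and antibody was below all vehicle libraries in 3 of 5 libraries. Col9a1, Col9a2 and Col9a3, which coat cartilage fibrils, and Col20a1 averaged below 1 RPKM.

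Col7a1 forms the anchoring fibrils that fasten skin epithelium to the dermis. It measured 0.584, 1.81, 1.5, 1.12 and 1.62 in antibody libraries 1 to 5 and 1.73, 7.39, 1.57, 1.78 and 1.33 in vehicle libraries 1 to 5. Vehicle 2 stood apart from all other libraries, and antibody 1 was lowest. The log2 difference of -0.63 (SE 0.38 in limma, adjusted p = 0.77, exact permutation p = 0.183) was -0.24 without vehicle 2 and -1.01 without the Kap-rich libraries. The 5 keratinocyte markers summed to 0.928 to 2.2 RPKM in the antibody group and 1.12 to 2.66 RPKM in the vehicle group. With antibody, 0 of 5 had a higher mean, and Krt5 was at 0 in some libraries. In vehicle 2 the 5 markers together summed to 1.92 RPKM.

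Among the 4 transmembrane chains, which stay anchored in the cell membrane, 3 had a lower and 1 a higher fitted value. Col13a1, known from muscle synapses, measured 0.186, 0.407, 0.389, 0.249 and 1.12 in antibody libraries 1 to 5 and 0.875, 1.18, 0.666, 0.785 and 0.485 in vehicle libraries 1 to 5. Antibody 1 to 4 were below all vehicle libraries, and antibody 5 lay near the top of the vehicle range. Its log2 difference was -0.47 (SE 0.23, unadjusted limma p = 0.0667, adjusted p = 0.739, exact permutation p = 0.0952). The values rest on 8 to 126 reads per library, and the log2 difference was -0.67 without antibody 5.

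Col23a1, a further chain of this class, measured 2.69, 2.11, 3.51, 1.72 and 3.97 in antibody libraries 1 to 5 and 1.73, 2.57, 1.89, 3.71 and 1.29 in vehicle libraries 1 to 5. Antibody 5 was highest and vehicle 5 lowest, and the log2 difference was 0.29 (SE 0.26 in limma, adjusted p = 0.808), 0.14 without vehicle 5 and 0.46 without vehicle 4. Col17a1, the hemidesmosome collagen of skin, measured 0.0558, 0.0666, 0.155, 0.108 and 0.263 in antibody libraries 1 to 5 and 0.345, 0.194, 0.137, 0.164 and 0.0775 in vehicle libraries 1 to 5. Its groups overlapped, with a log2 difference of -0.12 (limma adjusted p = 0.835; -0.19 to -0.04 with each library left out), and its counts were 3 to 39 reads. Col25a1, a neuronal chain, ranged from 0.0242 to 0.0957 RPKM with antibody and 0.0237 to 0.182 RPKM with vehicle.

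The multiplexins Col15a1 and Col18a1 lie in the basement membrane zone of vessels, and the end of the Col18a1 product is released as endostatin. Col15a1 measured 64.5, 85.6, 70.6, 46.7 and 50.2 in antibody libraries 1 to 5 and 71.2, 119, 59.9, 66.9 and 57.8 in vehicle libraries 1 to 5. Vehicle 2 was highest, and antibody 4 and 5 were below all vehicle libraries. The log2 difference was -0.22 (SE 0.22 in limma, adjusted p = 0.827), -0.04 without vehicle 2 and -0.33 without antibody 2. Col18a1 measured 58.6, 77.7, 77.1, 45.9 and 52.7 in antibody libraries 1 to 5 and 58.3, 88.1, 72.4, 54.6 and 56.7 in vehicle libraries 1 to 5. Vehicle 2 was also its highest library and antibody 4 its lowest, and the log2 difference was -0.09 (SE 0.19 in limma, adjusted p = 0.918), but 0.02 without vehicle 2 and 0.01 without antibody 4.

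Col28a1, a chain found around peripheral nerves, measured 0.985, 0.736, 0.686, 1.5 and 1.43 in antibody libraries 1 to 5 and 1.16, 2.79, 1.1, 1.28 and 0.707 in vehicle libraries 1 to 5. Vehicle 2 was highest, the groups overlapped, and the log2 difference was -0.23 (SE 0.26 in limma, adjusted p = 0.84), -0.01 without vehicle 2 and -0.38 without vehicle 5. The 5 Schwann cell markers summed to 1.94 to 3.47 RPKM in the antibody group and 2.19 to 3.59 RPKM in the vehicle group, all detected in every library, with 1 of 5 higher with antibody. Col26a1, a chain described in the reproductive organs, measured 0.055, 0.0575, 0.0766, 0.0624 and 0.368 in antibody libraries 1 to 5 and 0.41, 0.215, 0.0975, 0.476 and 0.21 in vehicle libraries 1 to 5. Antibody 1 to 4 were below all vehicle libraries, antibody 5 lay inside their range, and the values rest on 2 to 97 reads. The log2 difference was -0.33 (SE 0.17 in limma, adjusted p = 0.74).

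Across the 18 abundant chains, single libraries were often the extremes. Vehicle 2 was the highest library in 8 chains and the lowest in 2, and vehicle 5 was the highest in 5. Antibody 4 was the lowest library in 6 chains and antibody 3, the shallowest library, in 4. The chains in which vehicle 2 was highest were Col5a3, Col4a1, Col4a2, Col6a1, Col6a2, Col6a3, Col15a1 and Col18a1, whereas vehicle 5 led Col3a1, Col1a1, Col1a2, Col5a1 and Col5a2. Vehicle 2 was also the second highest library for Col1a1 and Col5a1, as was vehicle 5 for Col6a2. The share of protein-coding reads that fell on all collagen chains was 10.3, 11.4, 10.1, 10.6 and 10.1 percent in antibody libraries 1 to 5 and 12.4, 11.4, 12, 9.45 and 13.7 percent in vehicle libraries 1 to 5. The groups overlapped, with 10.5 ± 0.531 percent with antibody and 11.8 ± 1.56 percent with vehicle (SD, n = 5 each), a difference of -1.28 percentage points that was -0.80 without vehicle 5 and -0.76 without the Kap-rich libraries.

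**Figure D4:**
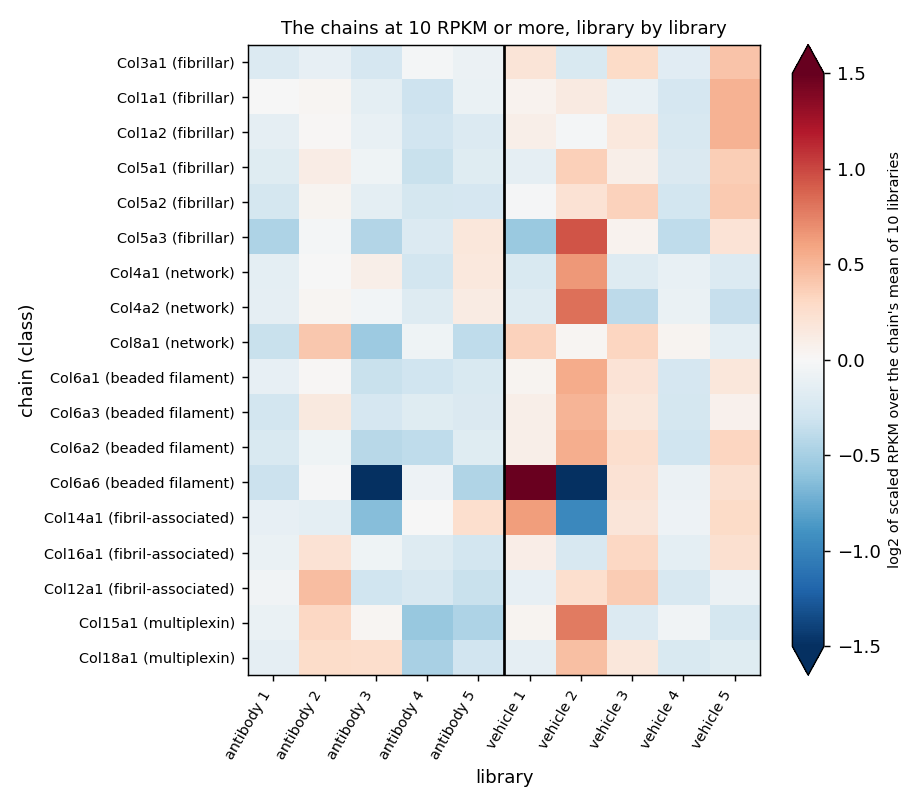
Heat map of the 18 chains at 10 RPKM or more in each of the 10 libraries, as log2 of scaled RPKM over the chain's mean of all libraries; colours end at -1.5 and 1.5, and values beyond take the end colour. Vehicle 2 is the highest library in 8 chains and vehicle 5 in 5, and vehicle 2 is the lowest for Col6a6 and Col14a1.

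Chains of the same trimer had ratios that varied less between libraries than the levels of the chains themselves. The ratio of Col4a1 to Col4a2 was 1.75 ± 0.0939 with antibody and 1.78 ± 0.182 with vehicle (SD, n = 5 each), a coefficient of variation of 7.8% over 10 libraries, against 22.01% for Col4a1 and 28.8% for Col4a2. Col6a1 to Col6a2 was 1.83 ± 0.0728 with antibody and 1.7 ± 0.0876 with vehicle (SD, n = 5 each), a coefficient of variation of 5.74% against 20.8% and 23.8% for the chains. In 4 of 5 antibody libraries this type VI ratio was above all vehicle libraries, and antibody 5, at 1.70, lay inside their range. Both chains of each pair come from the same libraries, so these figures are descriptions without a test. The size of a ratio also depends on the annotated lengths, 4380 bases for Col6a1 and 8326 for Col6a2. In reads over all libraries Col6a2 held more, 275929 against 255065 for Col6a1.

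For type I collagen the ratio of Col1a1 to Col1a2 was 2.83 ± 0.147 with antibody and 2.71 ± 0.288 with vehicle (SD, n = 5 each), a coefficient of variation of 8.1% against 17.7% and 18.1% for the chains. The ratio of Col3a1 to Col1a1 was 1.17 ± 0.162 with antibody and 1.23 ± 0.241 with vehicle (SD, n = 5 each), with vehicle 3 highest at 1.57 and vehicle 2 lowest at 0.917. Col5a2 to Col1a1 was 0.0891 ± 0.00778 with antibody and 0.0985 ± 0.0172 with vehicle (SD, n = 5 each), with vehicle 3 highest. Ratios between chains of different trimers also varied less than the chains, at 16.4% for Col3a1 to Col1a1 and 14.4% for Col5a2 to Col1a1. The chains themselves were at 17.5% (Col3a1), 17.7% (Col1a1) and 18.8% (Col5a2). In these 3 ratios the groups overlapped, and RPKM ratios are of transcripts per length, not of protein chains. The annotated length was 6563 bases for Col1a1 and 12136 for Col1a2, with 3089674 and 2086967 reads over all libraries.

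**Figure D5:**
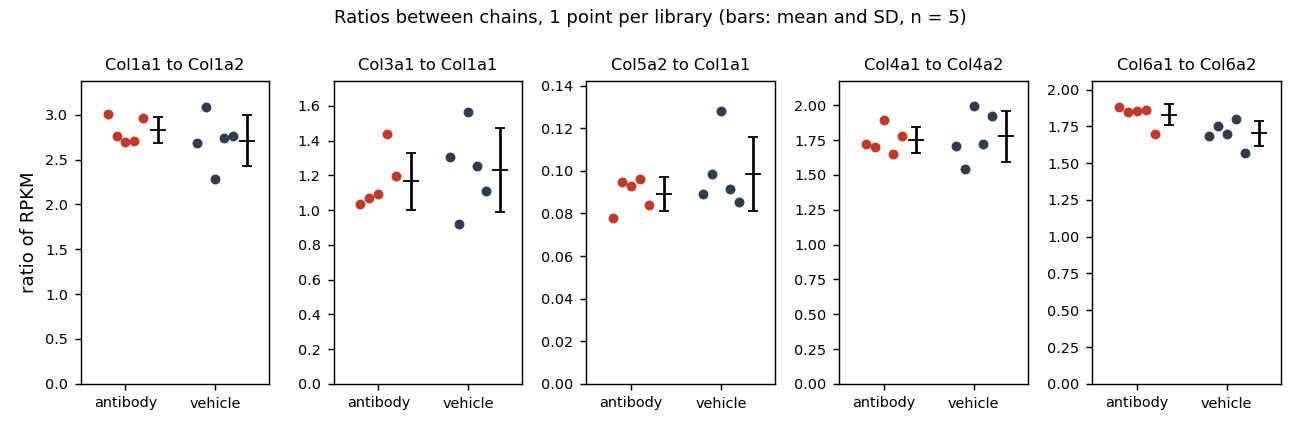
Ratios of RPKM between chains of the same trimer or fibril, with 1 point per library and the mean and SD (n = 5 libraries per group) as bars. The points of Col6a1 to Col6a2 lie between 1.57 and 1.88, and 4 of 5 antibody libraries are above all vehicle libraries.

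The genes that modify, trim, cross-link, bind and degrade collagen were read from 4 lists. None of the 48 tested genes had an adjusted p below 0.05, and 36 had a lower and 12 a higher fitted value with antibody (75% lower, against 51.1% of all genes tested). At an unadjusted p below 0.05 there were 3 lower and 1 higher, 4 in all (8.33%, against 6.54% of all genes). That count was 9 without vehicle 4, 2 without antibody 3, 1 without antibody 1, vehicle 1 or vehicle 5, 2 with library totals alone, and 0 without the 4 libraries highest in Kap. Over all genes, 1389 of 17594 had such a p without vehicle 4 and 1084 of 17729 without antibody 3. The number was 773 of 17741 without antibody 1, 1221 of 17560 without vehicle 1 and 828 of 17772 without vehicle 5. With library totals alone it was 991 of 17859, and without the Kap-rich libraries, a fit of fewer libraries, 515 of 16134.

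Among 20 genes of chain modification and folding, 16 had a lower fitted value and 0 an unadjusted p below 0.05, with a median log2 difference of -0.10. Colgalt2, which adds galactose to collagen hydroxylysine, was 0.552 ± 0.242 RPKM with antibody and 0.889 ± 0.308 RPKM with vehicle (SD, n = 5 each) (limma adjusted p = 0.739). P3h4, a partner of collagen lysyl hydroxylation, was 11.3 ± 1.11 RPKM with antibody and 14.4 ± 3.9 RPKM with vehicle (SD, n = 5 each). Plod1, a lysyl hydroxylase of collagen, was 13.9 ± 0.869 RPKM with antibody and 15.7 ± 1.73 RPKM with vehicle (SD, n = 5 each). The groups overlapped in these genes.

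Procollagen trimming and cross-linking held 12 tested genes, 11 with a lower fitted value, and a median of -0.18, while Tll2 was not tested. Loxl1, a lysyl oxidase relative that cross-links collagen and elastin, was 80.8 ± 7.8 RPKM with antibody and 109 ± 22.9 RPKM with vehicle (SD, n = 5 each), a log2 difference of -0.41 (limma adjusted p = 0.739). Adamts2, which removes the amino propeptide of fibrillar procollagen, was 37.2 ± 3.03 RPKM with antibody and 44.5 ± 5.41 RPKM with vehicle (SD, n = 5 each), a log2 difference of -0.25 (limma adjusted p = 0.739). Tll1, a relative of the procollagen C-proteinase Bmp1, was the exception to the direction of the list. It was 3.17 ± 0.527 RPKM with antibody and 2.41 ± 0.411 RPKM with vehicle (SD, n = 5 each), a log2 difference of 0.34 (limma adjusted p = 0.739).

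Among 10 collagen receptors and uptake genes, 7 had a lower fitted value, with a median of -0.06. Gp6, the collagen receptor of platelets, ranged from 0.186 to 1.75 RPKM with antibody and 1.02 to 3.36 RPKM with vehicle, a log2 difference of -0.91 (limma adjusted p = 0.739). Mrc2, an uptake receptor for collagen, was 30.2 ± 2.92 RPKM with antibody and 36.8 ± 6.82 RPKM with vehicle (SD, n = 5 each), and Ddr1, a receptor tyrosine kinase for collagen, 3.28 ± 0.482 RPKM with antibody and 3.81 ± 0.587 RPKM with vehicle (SD, n = 5 each).

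Of the collagen-degrading enzymes, 6 were tested and 4 had a higher fitted value with antibody, with a median of 0.27, while Mmp1a was not tested. Mmp13, a collagenase, was 2.98 ± 2.32 RPKM with antibody and 1.44 ± 0.539 RPKM with vehicle (SD, n = 5 each), a log2 difference of 0.69 (limma adjusted p = 0.739). Antibody 1, at 7.05 RPKM, stood above the other antibody libraries (1.38 to 2.56 RPKM), and the difference was 0.36 without it. Mmp8, the neutrophil collagenase, was 1.2 ± 0.866 RPKM with antibody and 0.622 ± 0.314 RPKM with vehicle (SD, n = 5 each), and Mmp9, a gelatinase stored in neutrophils, 26.5 ± 23 RPKM with antibody and 13.7 ± 12.2 RPKM with vehicle (SD, n = 5 each). Without antibody 3, the library highest in both, their log2 differences of 0.48 and 0.91 were 0.26 and 0.49. The 5 neutrophil markers, all detected in every library, summed to 52.4 to 356 RPKM in the antibody group and 21.9 to 139 RPKM in the vehicle group, with 5 of 5 higher with antibody, and their part in the values of Mmp8 and Mmp9 was not tested. Mmp2 and Mmp14, which are made by fibroblasts among other cells, differed by -0.05 and -0.09 on the log2 scale.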

How the data were processed

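RNA was sequenced from 10 vein libraries, 5 per group, grouped by their titles, with replicate numbers from the titles. The TruSeq V2 kit was applied to total RNA, per the labels' protocols, and the submitters' processing notes name mm10. The sources used here do not give how reads were aligned, counted or assigned to strands. Coordinates of 41 of 44 chains equal those of GENCODE M21, and 24 chains overlap the span of another gene. Spans and not exons were compared, so whether reads of those genes were counted for the chains is not known.

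The deposited table gives RPKM per library, per the file headers, with the authors' averages, antibody to vehicle ratio and unadjusted p-value. Library totals were worked out from the values themselves, as those that turn RPKM times gene length into whole reads. The length used was the listed one and a further base. With these totals 100% of values were whole within 0.001, which set the depth. A count model had been planned only for a table of raw counts, so limma was used.

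RPKM was scaled with trimmed means of M values (factors 0.841 to 1.13), computed on the genes kept. Genes needed 0.513 CPM (10 reads at median depth) in 5 libraries and 15 reads in all, which left 17859. Antibody minus vehicle was tested on log2(RPKM + 0.5) with limma 3.58.1 (R 4.3.3; trended variance, two-sided), and p-values were adjusted by Benjamini-Hochberg over these genes. Exact permutation tests covered single chains. The fitting code was also run on simulated counts. Those were drawn gene by gene, without effects shared across the genes of a library, so the run says nothing on such effects. Every pair of libraries within a group differed beyond sampling noise (chi-square per degree of freedom at least 12.6), and the labels name no batch.

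The members, classes and lists were chosen with earlier results of these data known. Values in every library are given for the 3 highest chains of each class (all chains of classes below 3 members where any reads 1 RPKM) and for chains with an unadjusted p below 0.05; other chains appear by range, or by mean and difference. Pathway genes named are the 3 of smallest p per list and any below 0.05; Mmp2, Mmp14, values without a named library for other chains and pathway genes, and the ranges of Col4a5, Col5a2 and Col19a1 were added after their values were seen. Alternatives covered scaling, pseudocount, filters, each library left out, a replicate block, limma-voom, a skeletal muscle covariate and leaving out the 4 libraries highest in Kap.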

Additional observations from a re-analysis of the deposited data

Results flagged for a closer look

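In groups of 5 libraries, a library was singled out when its gap to the nearest other exceeded 0.71 of the group's range (Dixon's criterion). Of 54 groups checked, which left out the chains not described in full, 10 held such a library. Chance gives about 1 in 20 for a single group of normal values. The groups share the same libraries and chains vary together, so the count cannot be set against that rate. Vehicle 2 accounted for 5 of the 10. It stood above the other vehicle libraries for Col4a1 (322 RPKM against 176 to 190.2), Col4a2 (209 against 90.3 to 110.3), Col15a1 (119 against 57.8 to 71.2), Col7a1 (7.39 against 1.33 to 1.78) and Col28a1 (2.79 against 0.707 to 1.28). Smooth muscle markers were also highest in vehicle 2 (478 RPKM summed), followed by antibody 3 (432 RPKM), which was not singled out. Fibroblast, neutrophil and erythroid markers were lowest in vehicle 2. The part of these cell types in these values was not tested.

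Antibody 2 stood above the other antibody libraries for Col6a3 (289.9 RPKM against 217 to 230.2) and Col12a1 (56.3 against 32.3 to 39.2). Antibody 5 did so for Col13a1 (1.12 RPKM against 0.186 to 0.407) and Col26a1 (0.368 against 0.055 to 0.0766), and its ratio of Col6a1 to Col6a2 was the lowest of its group (1.70 against 1.85 to 1.88). Over all chains, the same rule also singled out libraries for Col11a1 (antibody 2 high, vehicle 5 low) and Col4a6 (vehicle 1 high). For Col19a1 it singled out antibody 5 and vehicle 4, both high.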

How the results depend on the processing

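Of the 21 chains described in full, 17 kept the sign of their log2 difference under all 20 alternatives that could be fitted to each. The others were Col4a1 (0.0653 with library totals alone; -0.0722 to 0.147 with each library left out), Col4a2 (0.083 with totals alone, 0.00207 with no filter, 0.00555 at 1 CPM in every library, 0.0088 in limma-voom; -0.0893 to 0.215 with each library left out), Col14a1 (0.12 without the 4 libraries highest in Kap; -0.383 to 0.0129) and Col18a1 (-0.172 to 0.0225). Chains with a lower fitted value numbered 31 to 36 with each library left out, and 30 of 41 without the Kap-rich libraries.

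No chain was called under any alternative, and 1 gene outside the family was called with no filter. Chains at an unadjusted p below 0.05 (2) numbered 1 with totals alone, 6 in limma-voom and 2 to 6 with each library left out. Without the Kap-rich libraries 2 of 41 had such a p, Col8a1 and Col11a1, both lower. Neither is a chain of the main fit's pair, Col24a1 and Col6a2. Over all genes, such a p (1168 of 17859) was met by 991 with totals alone and 1062 in limma-voom. With each library left out it was met by 773 (without antibody 1) to 1497 (without antibody 5), and by 515 of 16134 without the Kap-rich libraries. The median over chains was -0.24 at a pseudocount of 0.1. Pathway genes at that p (4) numbered 2 with totals alone, 0 without the Kap-rich libraries and 1 to 9 with each library left out. For these counts the cause was not tested.

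With the replicate number as a block, 2 chains and 1245 of 17859 genes had an unadjusted p below 0.05. In that fit 35 chains were lower and the smallest adjusted p in limma was 0.685. Same-numbered libraries correlated at -0.0953 to 0.347 in their deviations, and 1 of 5 correlated best with its own number, so the numbers were not taken to pair libraries. Scaling and pseudocount cancel in shares and ratios, for which they were not run. Depth limits the rarest chains, which rest on a few reads in the shallow libraries.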
